A study of Rattus norvegicus with 5 samples.

Results

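The fibrous zone (FZ) and the proliferative zone (PZ), the 2 adjacent superficial layers of the mandibular condylar cartilage (MCC), were compared in 1 array each out of the 5 arrays of the study. Every probe set that is not a control was taken, 31042 of 31099, and its value in PZ was subtracted from its value in FZ, so that a positive difference means a higher value in FZ. Both groups were wild type, male, 5-week-old Sprague-Dawley rats. Cells of the FZ and of the PZ were cut out by laser from 7 µm frozen sections, lysates of many sections were pooled into a single sample per zone, and the RNA was amplified in 2 linear cycles before hybridization. The labels give 30 sections for each group, whereas the methods describe more for FZ, and the number of animals is not stated. The other arrays were the mature zone (MZ) and hypertrophic zone (HZ) of the same cartilage and femoral condylar cartilage (FCC) from its middle and deep zones, from rats of the same strain, sex and age. The question was how the fibrous layer at the joint surface and the layer just under it differ in expression.

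The MCC is a fibrocartilage that serves both as a joint surface and as a growth cartilage of the jaw. Its surface layer holds flattened fibroblast-like cells in a matrix of fibrillar collagens, and the layer beneath holds progenitor cells that divide and go on to become chondrocytes. Chondrocytes make a matrix of type II, IX and XI collagens with aggrecan, while fibrous tissues rely on collagens of other types, small proteoglycans and microfibrils, the thin fibrillin filaments that elastic fibres are built on.

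The deposited values are log2 values, centred for every probe set on its median over the 5 arrays, so that 0 is the middle array of that probe set. In the text a level is such a value and a difference is FZ minus PZ on the same log2 scale. Each zone has a single array, so the differences lack replicates and were given no test. The only spread that the files offer is that between probe sets of 1 gene. For the 4525 genes represented by 2 or more probe sets, the SD of the difference among them had a median of 0.30 and a 90th percentile of 0.79. The added hybridization controls averaged −0.15 in FZ and 0.44 in PZ over 18 probe sets, and if the arrays are shifted to make them equal, the median difference of all probe sets moves from −0.05 to 0.54. Differences are reported as deposited and can be read relative to that shift.

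The label of the proliferative layer was set against genes of cell division, and their median was not higher in PZ, so that PZ here means the layer so labelled. Of 34 measured genes of the cell cycle and DNA replication, 0 were at least 1 higher in PZ and 5 were at least 1 higher in FZ, with a median of 0.38. Over all 14217 named genes 1.12% were at least 1 higher in PZ and 6.1% in FZ, so that a count of 0 in PZ is near the background for a list of this size. The counts of every list below are to be read against these shares. Mki67, a marker of dividing cells, differed by 0.00. Top2a, the topoisomerase of replicating chromosomes, was at 0.44 in FZ and −0.80 in PZ, Pcna, the replication clamp, at 0.00 and −1.03, Mcm6, a subunit of the replicative helicase, at 0.00 and −1.38, and Cenpe, a kinetochore motor, at 0.34 and −1.43. Plk1, a mitotic kinase, was 1.02 higher in FZ, and Bub1b, a checkpoint protein, was the member most toward PZ at −0.89. Top2a, Pcna, Mcm6, Cenpe and Plk1 are named because they are the 5 members past 1. The other 29 members lay within 1 of 0, and 25 of the 34 were above 0. Outside the list, and chosen after their values were seen, Cdc25b, a phosphatase that starts mitosis, was at 0.00 in FZ and −2.40 in PZ, and Cdk4, a kinase of early cycle, differed by 2.06. The median level of the list was 0.06 in FZ, −0.13 in PZ, 0.00 in MZ, 0.23 in HZ and −1.14 in FCC. Of 14 D cyclins and cell cycle inhibitors only Cdkn1c passed 1. Of the markers set for the fibrous layer, Tnmd, Dpt, Mfap5 and Col14a1 were higher in FZ. Thbs2, also set as a marker of that layer, was not among the genes at least 2 higher in FZ. Its difference is not given here, so the markers named as higher are not the whole set. The chondrocyte markers Col2a1, Col9a1, Hapln1, Matn3 and Cnmd were higher in PZ, with Acan near 0. No probe set is listed under the names of the further markers Prg4 (fibrous layer) and Sox9 (chondrocytes).

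Most of the transcriptome was similar in the 2 layers, with 23277 probe sets within 0.5 of 0 and an SD of 0.54 over all probe sets. At a difference of at least 2, which is 4-fold, 146 probe sets of 123 named genes were higher in FZ (0.47% of those compared) and 43 probe sets of 25 named genes were higher in PZ (0.139%). Thus 77.2% of the probe sets past this size were higher in FZ. This share became 97.1% after the shift by the hybridization controls, with 598 higher in FZ and 18 in PZ, and 87.8% after a shift by the Cre controls alone. As deposited, 7 probe sets were at least 3 higher in FZ against 13 in PZ, and 1 against 6 at a size of 4. The direction turned after the shift by the hybridization controls, to 51 against 8 and 3 against 1. With the Cre controls the counts were nearly even at a size of 3, at 12 against 11, and kept their direction at 4, at 1 against 5.

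**Figure D1:**
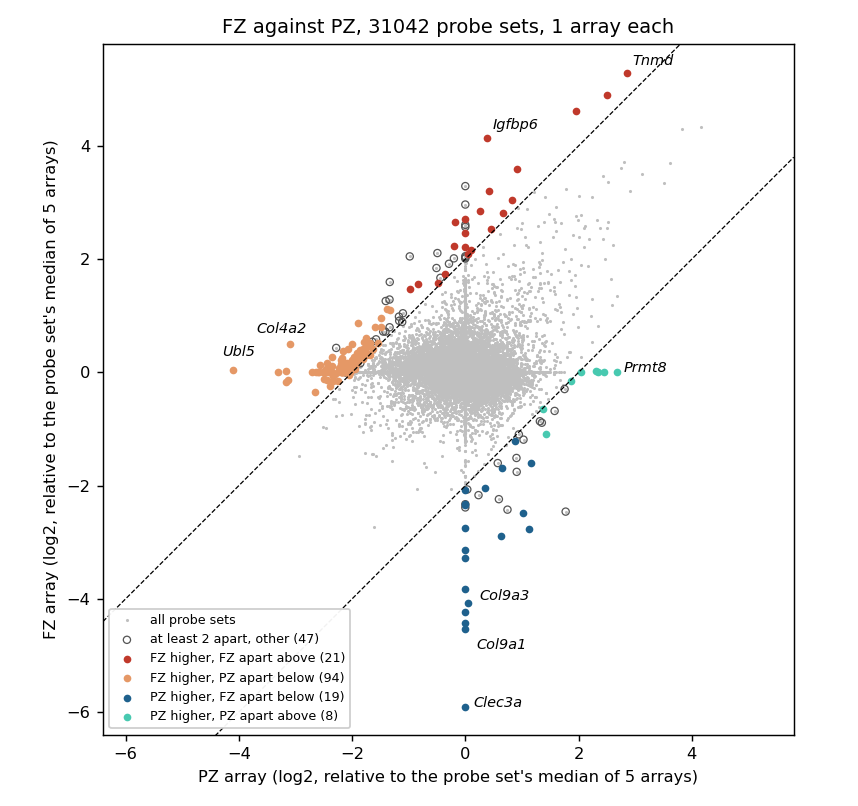
Level in FZ (vertical axis) against level in PZ (horizontal axis) for 31042 probe sets, both in log2 relative to the median of the 5 arrays, with dashed lines at differences of 2 and −2. Of the coloured points, 94 probe sets lie far to the left because PZ is low, 21 lie high because FZ is high, 19 lie low because FZ is low and 8 lie to the right because PZ is high.

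The remaining 3 arrays, which the subtraction did not use, showed which of the 2 layers stood apart. A layer was called apart where it lay at least 1 beyond all 4 other arrays. Among the 146 probe sets higher in FZ, PZ stood apart below in 94, FZ stood apart above in 21, both applied in 2 and neither in 29. PZ was the lowest of the 5 arrays in 117 of the 146, and FZ was the highest in 76. These 146 were chosen for a higher value in FZ, which favours both counts. The share of all probe sets or genes with PZ lowest or FZ highest was not counted, here or for the lists below. The PZ array also stood apart over the whole array, lying at least 1 below all others in 548 of the 31042 probe sets and above them in 134, against 48 below and 141 above for FZ. Among the 146 probe sets, MZ lay nearer to PZ than to FZ in 34. Among the 43 probe sets higher in PZ, FZ stood apart below in 19, PZ stood apart above in 8, both applied in 1 and neither in 15, and MZ lay nearer to PZ in 33. The deposited values share the median over the 5 arrays, so these places are a description of 5 libraries. A simple order from the surface down, FZ above PZ above MZ above HZ, was found for 15 of the 146.

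**Figure D2:**
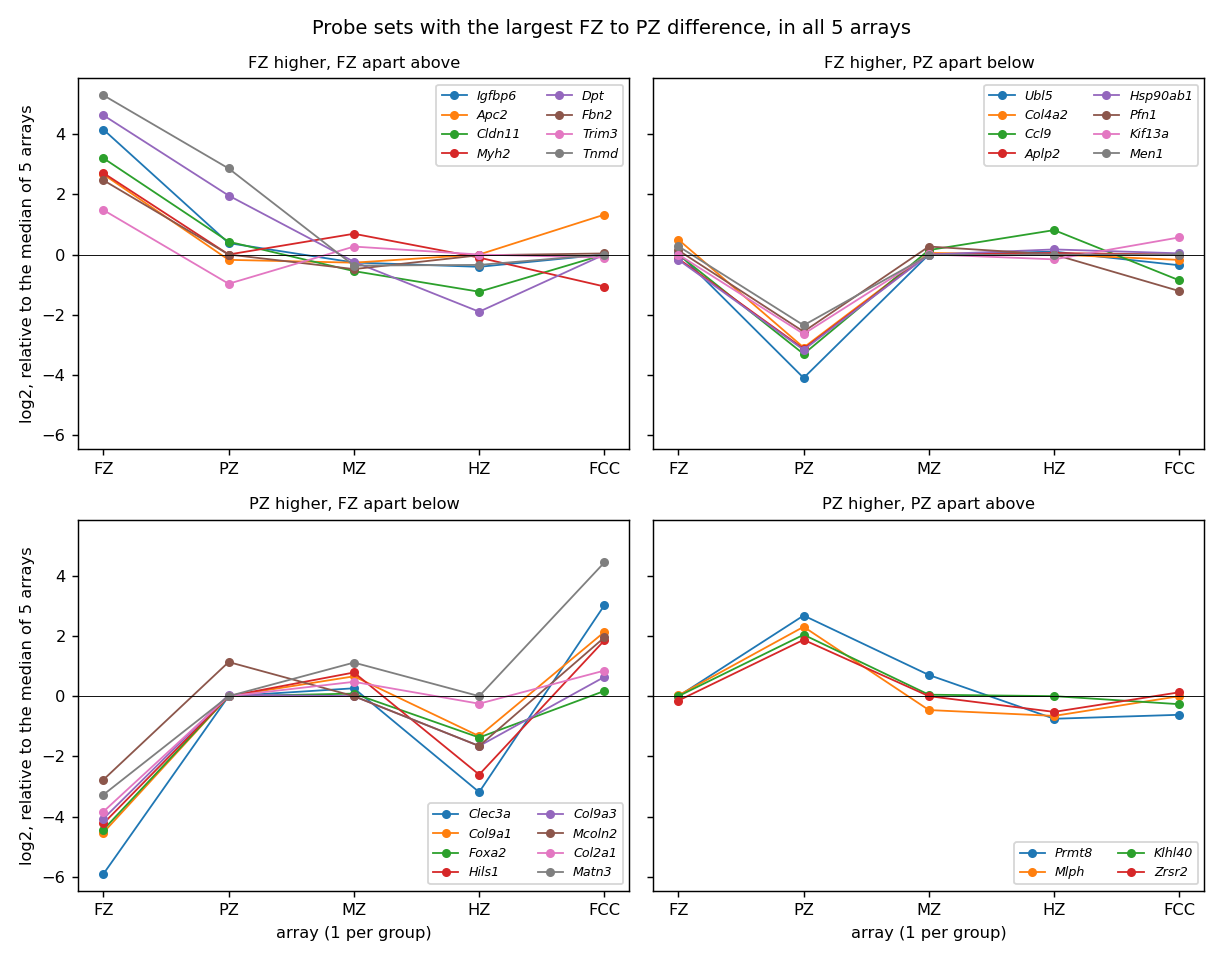
Level in each of the 5 arrays (log2, relative to the median of the 5) of up to 8 named genes per panel, those with the largest difference between FZ and PZ, split by which layer stood apart. In the panel of genes low in PZ that array lies well below the other 4, whereas most genes low in FZ are also low in HZ and highest in FCC.

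Genes of cartilage matrix gave the largest differences toward PZ, with FZ the low layer. Clec3a, a lectin of cartilage matrix, was at −5.90 in FZ, 0.00 in PZ, 0.26 in MZ, −3.19 in HZ and 3.02 in FCC. Its difference of −5.90, or 59.8-fold, was the largest in the comparison. The 3 genes that encode the chains of type IX collagen, which sits on the surface of type II fibrils, all had far lower levels in FZ. Col9a1 was at −4.53 in FZ and 0.00 in PZ (23.1-fold), with 0.66 in MZ, −1.33 in HZ and 2.13 in FCC. Col9a3 was at −4.07 and 0.05 (17.3-fold), and Col9a2 at −2.75 and 0.00 (6.75-fold). In each of the 3 genes FZ was the lowest of the 5 arrays and HZ the next lowest, while PZ and MZ differed by at most 0.66.

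Col2a1, the main collagen of hyaline cartilage, was lower in FZ by all of its 3 probe sets, with differences of −3.83, −2.08 and −1.58. Comp, a protein that links collagen fibrils, differed by −2.33 and Col27a1, a fibrillar collagen of cartilage, by −1.55. The chains of type XI collagen differed less, with −1.20 for Col11a2 and −0.30 for Col11a1. Matn3, a matrilin whose probe set is paired with the gene in the paper but not in the platform annotation, differed by −3.27, and Matn1 by −0.54. Of 12 measured genes of cartilage collagens and their partners, 7 were at least 1 higher in PZ and 2 at least 1 higher in FZ, with a median of −1.38. Over all 14217 named genes the shares were 1.12% and 6.1% and the median was 0.00. The 2 exceptions were chains of type VI collagen, which surrounds cells in many connective tissues, Col6a2 (1.76) and Col6a1 (1.03), whereas Col6a3 was at 0.05. The list median was −0.79 after the shift by hybridization controls. Those controls differed by −0.59, too little to turn a median of −1.38, so its direction could not change under the scalings used.

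The promoters of 2 of the type IX collagen genes are shown because both genes were far lower in FZ, with that of a gene high in FZ (Dpt, described below) and those of 2 genes low in PZ (Hsp90ab1 and Psmc3, also below) for contrast. Each line gives the 250 bases before the start of the gene from RefSeq, build GRCr8, 5′ to 3′ on the strand of the gene, and capitals mark GGGCGG (the GC box, a site for Sp1-type factors) and TATAAA (the TATA box) on either strand, the former in overlapping copies where they occur. Col9a1 lies at chr9:34081114-34081363 on the plus strand, Col9a2 at chr5:139892548-139892797 on the plus strand, Dpt at chr13:79656091-79656340 on the plus strand, Hsp90ab1 at chr9:22930173-22930422 on the plus strand and Psmc3 at chr3:97487393-97487642 on the plus strand.
Col9a1: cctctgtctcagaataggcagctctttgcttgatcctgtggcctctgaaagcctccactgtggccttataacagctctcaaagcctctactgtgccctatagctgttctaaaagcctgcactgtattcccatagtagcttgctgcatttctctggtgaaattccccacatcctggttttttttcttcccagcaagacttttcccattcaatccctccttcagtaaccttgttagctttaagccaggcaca
Col9a2: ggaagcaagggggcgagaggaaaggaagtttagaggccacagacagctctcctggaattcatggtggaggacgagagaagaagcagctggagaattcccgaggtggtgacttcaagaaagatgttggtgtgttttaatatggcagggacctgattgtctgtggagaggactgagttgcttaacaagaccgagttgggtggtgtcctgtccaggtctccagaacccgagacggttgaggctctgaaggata
Dpt: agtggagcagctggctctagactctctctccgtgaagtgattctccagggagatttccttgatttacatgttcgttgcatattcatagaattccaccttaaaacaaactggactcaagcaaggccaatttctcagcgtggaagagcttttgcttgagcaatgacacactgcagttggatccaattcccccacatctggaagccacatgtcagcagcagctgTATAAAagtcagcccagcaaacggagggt
Hsp90ab1: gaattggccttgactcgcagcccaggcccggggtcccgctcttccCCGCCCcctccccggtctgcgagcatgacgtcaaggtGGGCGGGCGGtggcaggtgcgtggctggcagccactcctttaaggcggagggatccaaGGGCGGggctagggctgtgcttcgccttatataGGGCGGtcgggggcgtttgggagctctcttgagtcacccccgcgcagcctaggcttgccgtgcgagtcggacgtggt
Psmc3: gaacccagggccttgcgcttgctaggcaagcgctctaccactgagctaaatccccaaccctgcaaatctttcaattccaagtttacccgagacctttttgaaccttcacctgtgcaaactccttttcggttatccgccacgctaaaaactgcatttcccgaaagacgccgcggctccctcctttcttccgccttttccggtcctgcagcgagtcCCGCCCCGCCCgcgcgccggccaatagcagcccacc

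Neither collagen promoter held a GC box or a TATA box in this window. Dpt held 1 TATA box close to its start, Hsp90ab1 held 5 copies of the GC box and Psmc3 held 2. Windows were at hand for 11700 of the 14217 named genes, taking the first window listed for each, and 54.2% of them held a GC box and 8.06% a TATA box. Among genes low in PZ, 44 of 70 windows (62.9%) held a GC box, against 4 of 14 (28.6%) for genes that stood apart above in FZ, 0 of 6 for genes that stood apart below in FZ and 0 of 3 for genes that stood apart above in PZ. TATA boxes were found in 9 of 70, 3 of 14, 1 of 6 and 0 of 3 of these windows. The core of the SOX motif, ACAAAG or ACAATG on either strand, was found in 0 of 8 windows of the cartilage collagen list and in 17.9% of all named genes. These are matches of letters and say nothing of binding.

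Several other genes known from chondrocytes were also lower in FZ than in PZ. Snorc, a membrane proteoglycan of chondrocytes, was at −2.34 in FZ, 0.00 in PZ, 1.81 in MZ, −0.38 in HZ and 5.13 in FCC. Cmtm5 was at −3.14 in FZ and 0.00 in PZ (8.82-fold). Hapln1, the link protein that fixes aggrecan to hyaluronan, was lower in FZ by its 3 probe sets, with −2.26, −1.84 and −1.20, although HZ was lower still in each. Cnmd, an inhibitor of angiogenesis secreted by chondrocytes, differed by −1.81 and Scrg1 by −1.39. Of 9 small secreted cartilage proteins, 4 were at least 1 higher in PZ and 1, Cilp2 (1.64), in FZ, with a median of −0.82.

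Not every cartilage gene was lower in FZ. Acan, the core protein of aggrecan, was at 0.41 in FZ and 0.00 in PZ, Ucma, which upper growth plate chondrocytes secrete, at 0.32 and 0.00, and Chad, a leucine-rich protein that binds chondrocytes, was 1.27 higher in FZ. The fold changes in the paper place Chad far below FCC in both FZ and PZ. Of 12 genes of the aggrecan network and cartilage proteoglycans, 2 were at least 1 higher in PZ and 1 in FZ, with a median of 0.13. Col10a1, the collagen of hypertrophic cartilage, was low in both layers, at −2.73 in FZ and −1.61 in PZ. Ihh, the signal of prehypertrophic chondrocytes, was at −1.22 and −0.45.

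Foxa2, a transcription factor that acts in chondrocyte hypertrophy, was at −4.43 in FZ, 0.00 in PZ, 0.08 in MZ, −1.37 in HZ and 0.17 in FCC (21.6-fold). It was the only one of 12 measured chondrocyte transcription factors past 1. The related Foxa1 and Foxa3 were at −0.02 and 0.00 in this difference, Sox6 at −0.88 and Trps1, a repressor in growth plate cartilage, at −0.74. No probe set is listed under the names Sox9 and Runx2.

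Further genes low in FZ included Hils1, a linker histone known from spermatids (−4.23), Mcoln2, an ion channel of endosomes (−3.91), Scin, which severs actin filaments (−3.17), Lims2, an adaptor of integrin adhesions (−2.83), and Moxd1, a relative of dopamine hydroxylase (−2.38). Each has 1 probe set. In Hils1 the level was 1.85 in FCC, 0.79 in MZ and −2.60 in HZ, and in Scin 2.48, 0.00 and −1.77, so that FCC was the highest array and FZ and HZ the lowest in both, as in Clec3a. Among the 19 probe sets that stood apart below in FZ, HZ was the second lowest array in 18 and at least 1 below PZ in 12, and FCC was the highest in 13.

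A smaller set of genes was high in PZ alone. Prmt8, a protein arginine methyltransferase, was at 2.68 in PZ and 0.00 in FZ, with 0.70 in MZ, −0.75 in HZ and −0.62 in FCC. Mlph, which tethers pigment granules to a myosin, was at 2.30 in PZ and 0.03 in FZ, and Klhl40, an adaptor known from muscle, at 2.04 and 0.00. Zrsr2, a splicing factor, was at 1.87 and −0.15 by 1 probe set, while its other probe set gave a difference of −0.39. Smim5, a small membrane protein, was at 1.77 in PZ and −2.46 in FZ (18.8-fold), between which lay 0.64 in MZ, −1.39 in HZ and 0.00 in FCC, and it was the only probe set in which PZ stood apart above and FZ apart below. Further genes that lay above all other arrays in PZ were Chd9, a chromatin remodeller (difference −1.98, and −0.43 by its other probe set), Kcnn1, a potassium channel (−1.66), and Kctd4 (−1.70 and −0.91). Hs3st6, an enzyme that sulfates heparan sulfate, and Rgs7bp, a partner of a G protein regulator, were high in both layers and higher in PZ, at 2.68 and 2.58 there against 1.34 and 1.19 in FZ. Apart from these, the genes of the lists gave few members at least 1 higher in PZ outside the cartilage and hypertrophy lists. They were Frzb, Wnt5b, Wnt4 and Tcf7 of Wnt signalling, the cell cycle inhibitor Cdkn1c (−1.19) and the immediate early gene Fosb (−1.48).

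The fibrous matrix was the clearest group higher in FZ. Of 16 genes of elastic fibres and microfibrils, 10 were at least 1 higher in FZ and 0 in PZ, with a median of 1.33. Fbn2, a fibrillin of developing tissues, was at 2.47 in FZ, 0.00 in PZ, −0.48 in MZ, −0.03 in HZ and 0.04 in FCC (5.52-fold). Mfap4 was at 3.29 in FZ and 0.00 in PZ, but FCC was nearly as high as FZ with 2.81. Mfap5, which decorates fibrillin microfibrils, was at 3.04 in FZ and 0.83 in PZ, with no other array above 0.00. The remaining members at least 1 higher in FZ were Ltbp4 (1.65), Mfap2 (1.65), Ltbp1 (1.57), Fbln5 (1.39), Fbn1 (1.38), Ltbp2 (1.28) and Loxl1 (1.25), which are microfibril proteins, latent TGF-beta binding proteins, a fibulin and a crosslinking enzyme. FZ was the highest of the 5 arrays in 9 of the 16 and PZ the lowest in 3.

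Tendon genes were also higher in FZ, and for Tnmd and Dpt PZ lay between FZ and the deeper zones. Tnmd, which encodes tenomodulin and marks tendon cells, was at 5.29 in FZ, 2.86 in PZ, −0.37 in MZ, −0.35 in HZ and 0.00 in FCC. Dpt, dermatopontin of fibrous matrix, was at 4.62 in FZ and 1.96 in PZ by the probe set with the larger difference, and its 2 probe sets differed by 2.67 and 0.91. Col14a1, a collagen associated with fibrils, differed by 2.96 and 1.60 by its 2 probe sets, with PZ at 0.00 in both. Of 23 genes of tendon and fibrous connective tissue, 8 were at least 1 higher in FZ and 0 in PZ, with a median of 0.77, and the other members past 1 included Col1a1 (1.32), Col5a1 (1.24) and Thbs4 (1.05). For Col1a1 it was PZ that was low, at −1.32 with FZ at 0.00. Of the 21 probe sets that stood apart above in FZ, PZ came second in 13 but was at least 1 above MZ, HZ and FCC in only 3, which were those of Tnmd, Dpt and Crabp1.

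Many other genes high in both superficial layers had similar levels in FZ and PZ. FZ and PZ both lay at least 1 above the other 3 arrays in 120 probe sets, a count added after the values were seen, and in 71 of these the difference between FZ and PZ was within 0.5, with a median of 0.26. At least 1 higher in FZ were 18 and in PZ 2. Over the whole array 23277 of the 31042 probe sets were within 0.5, a larger share than in this set. At least 1 higher in FZ were 1652 of the 31042, a smaller share than in this set, and 595 were at least 1 higher in PZ. The set was thus not more alike in the 2 layers than the array at large. P4ha3, a subunit of collagen prolyl hydroxylase, was at 3.34 in FZ and 3.51 in PZ. C1qtnf3, a secreted protein of cartilage and fibroblasts, was at 2.36 and 2.43, Ephb3, an ephrin receptor, at 2.39 and 2.01, and Aspn, a proteoglycan that binds collagen, differed by 0.17 and 0.29 by its 2 probe sets.

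Small leucine-rich proteoglycans, which bind collagen fibrils, were higher in FZ for 4 of 12 members by at least 1, with a median of 0.71. These were Prelp (1.54), Chad (1.27), Ecm2 (1.18) and Bgn (1.03). Dcn, decorin, differed by 0.77 and Lum, lumican, by 0.07. Among 18 markers of fibroblasts and progenitor cells, 4 were at least 1 higher in FZ, Col15a1 (1.82), Fbn1 (1.38), Thy1 (1.18) and Ifi27 (1.08), and 0 in PZ. Of 11 genes of the articular surface and the synovial lining, Thbs4 alone was past 1, while Cd55 and Clic5, which mark the synovial lining, were at −0.10 and −0.02. No probe set is listed under the name Prg4, the lubricin gene.

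**Figure D3:**
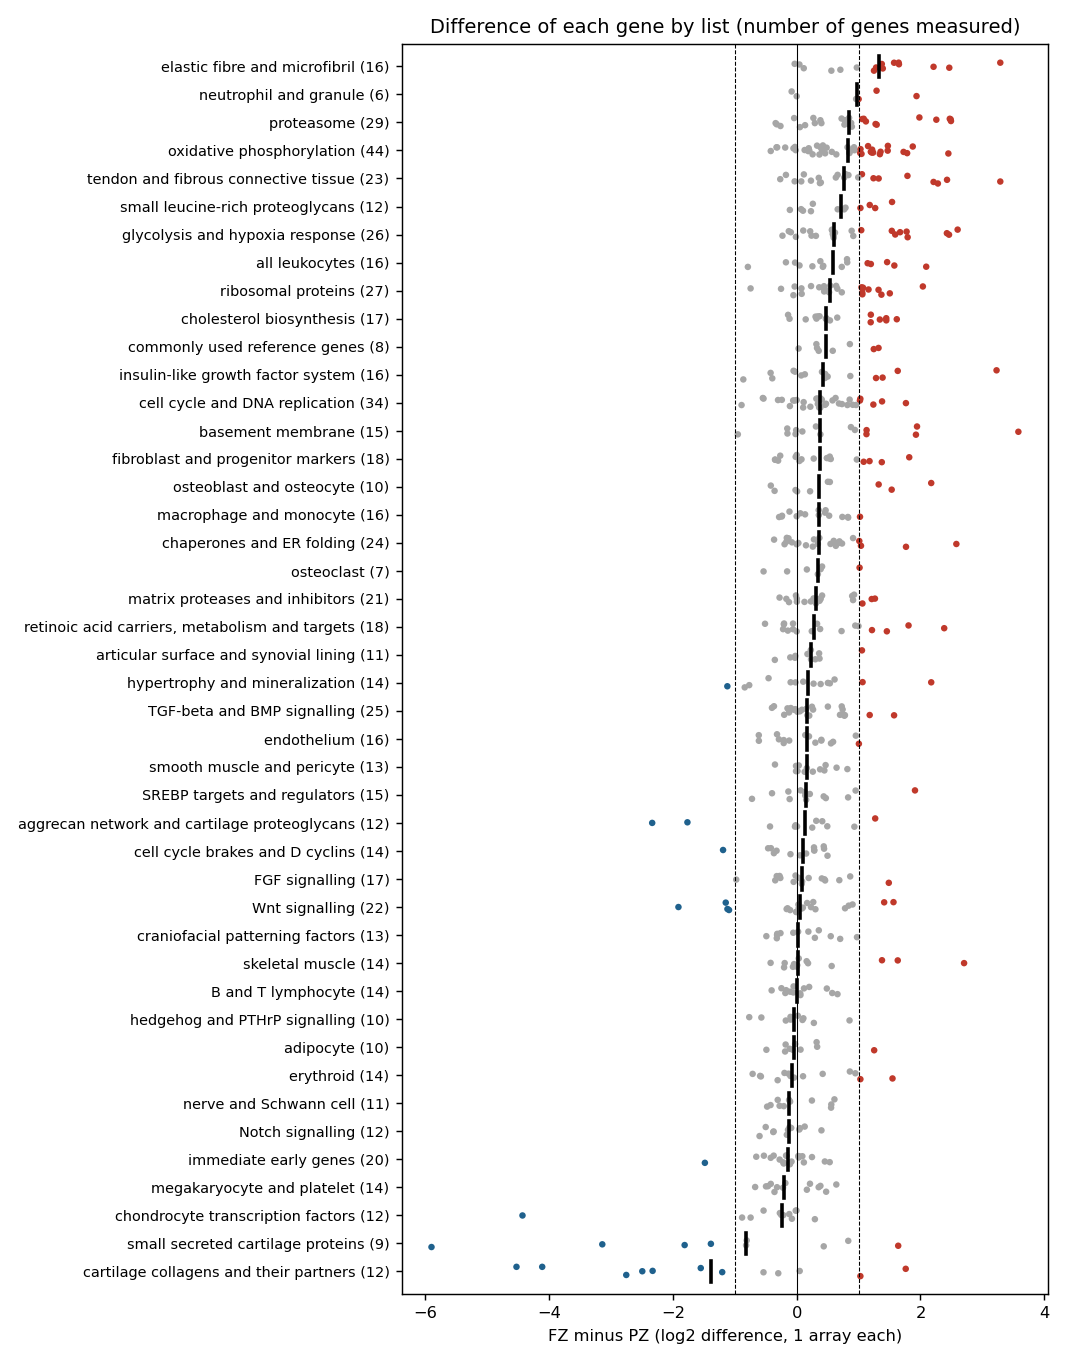
Difference FZ minus PZ (log2) of each measured gene in 44 lists, with 1 dot per gene, red for at least 1 higher in FZ, blue for at least 1 higher in PZ and a black bar at the list median. Lists are ordered by median, from −1.38 for cartilage collagens to 1.33 for elastic fibres and microfibrils.

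Some carriers of retinoic acid and of insulin-like growth factors stood out among the signalling genes, whereas their lists as a whole did not. The retinoic acid list had a median of 0.29, with 10 of 18 members above 0. The insulin-like growth factor list had a median of 0.43, with 11 of 16 above 0. Igfbp6, a binding protein with a preference for IGF-II, was at 4.15 in FZ, 0.38 in PZ, −0.27 in MZ, −0.41 in HZ and 0.00 in FCC by 1 probe set, a difference of 3.77 (13.6-fold), and at 3.60 and 0.91 in FZ and PZ by the other. It was 1 of only 2 genes with several probe sets that all passed 2. Of 16 genes of the insulin-like growth factor system, 4 were at least 1 higher in FZ and 0 in PZ, the others being Igfbp7 (1.63), Igfbp3 (1.39) and Igf1 (1.28). The 3 probe sets of Igf1 disagreed, with 2.36, 0.99 and 0.50. For Igf2, 1 probe set differed by 2.61 and the other 3 by −0.11, −0.20 and −0.30.

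Crabp1, which binds retinoic acid inside cells, was at 4.89 in FZ, 2.51 in PZ, 0.00 in MZ, −2.56 in HZ and −2.32 in FCC. Its relative Crabp2 was at 3.24 in FZ and 1.78 in PZ. Rbp4, the carrier of retinol in plasma, was at 1.81 and 0.00, and Rarres1, a gene induced by retinoids, at 0.00 and −1.22. These 4 were the members at least 1 higher in FZ among 18 genes of retinoic acid carriers, metabolism and targets, and 0 were higher in PZ. Cyp26b1, which degrades retinoic acid, differed by 1.13 and 0.87 by its 2 probe sets.

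Wnt signalling was split. Frzb, a secreted Wnt antagonist of cartilage, was at −1.83 in FZ, 0.00 in PZ, 0.99 in MZ, 0.00 in HZ and 0.55 in FCC by 1 of 2 probe sets, which differed by −1.99 and −1.83. The ligands Wnt5b (−1.15) and Wnt4 (−1.12) and the transcription factor Tcf7 (−1.09) were also higher in PZ. In FZ, Fzd1, a receptor, was higher by 1.56 and Wif1, another antagonist, by 1.41, the latter with FZ at 0.00 and PZ at −1.41. The count was thus 4 of 22 in PZ and 2 in FZ. Fgfr3, the receptor that restrains growth plate chondrocytes, was at −0.53 in FZ and 0.45 in PZ, and Spry1, a feedback inhibitor of FGF signalling, was 1.49 higher in FZ, the only member past 1 of 17. In the TGF-beta and BMP list 2 of 25 members passed 1, Ltbp1 and Bmp4 (1.18), and Nbl1, a BMP antagonist outside the list, was at 1.29 in FZ and −1.34 in PZ. The FGF and TGF-beta counts were near the 6.1% of all named genes at least 1 higher in FZ. None of 10 hedgehog and PTHrP genes and none of 12 Notch genes passed 1 in either direction. Gli1, a target of hedgehog signalling, was at 0.85 in FZ and 0.00 in PZ.

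Enzymes of cholesterol biosynthesis were higher in FZ, and here FZ rather than PZ was the layer that stood out. Of 17 measured enzymes, 6 were at least 1 higher in FZ and 0 in PZ, with a median of 0.48, and FZ was the highest of the 5 arrays in 15. The share of all genes with FZ highest was not counted. Idi1, which makes the isoprenoid building block, was at 1.32 in FZ and −0.13 in PZ, Acat2 at 1.43 and −0.01, Sqle, the squalene epoxidase, at 1.37 and 0.03, Fdps, the farnesyl diphosphate synthase, at 1.26 and 0.06 and Msmo1, a sterol demethylase, at 1.20 and 0.00. Ebp, a sterol isomerase, was at 0.46 and −1.16. Lss and Tm7sf2 were the 2 members below 0, at −0.12 and −0.14. Among 15 other targets and regulators of SREBP, the factor that controls this pathway, Scd, a fatty acid desaturase, was 1.91 higher in FZ and no other member passed 1.

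The largest group of all was low in PZ. In the 94 probe sets of this kind the median level was −2.15 in PZ and 0.06 in FZ. FZ lay within 0.5 of MZ in 79 of them, within 0.5 of HZ in 75 and within 0.5 of FCC in 56. Ubl5, a ubiquitin-like protein, was at −4.10 in PZ and 0.05 in FZ (17.6-fold), but its other 2 probe sets differed by 0.84 and −0.06. Col4a2, a chain of the collagen of basement membranes, was at −3.09 in PZ and 0.49 in FZ, and the other arrays lay between −0.18 (FCC) and 0.05 (MZ). Its partner Col4a1 differed by 2.44 and 1.41 by 2 probe sets, and Sparc, which binds type IV collagen, by 2.31 and 1.58. Of 15 basement membrane genes, 5 were at least 1 higher in FZ, the others being Agrn and Lamb1 at 1.13 each, and 0 in PZ, although Col4a5 was at −0.95. Hsp90ab1, a cytosolic chaperone, was the second gene with all probe sets past 2, at 2.99 and 2.17. Ccl9, a chemokine, was at −3.30 in PZ and 0.00 in FZ, Pfn1, which binds actin, at −2.56 and 0.14, and Ramp2, a receptor partner, at −2.44 and 0.17.

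Proteasome subunits were prominent in this group. Psma2, a subunit of the core ring, differed by 2.49, with FZ at 0.50, Psmb7, a catalytic subunit, was at −2.08 in PZ and 0.41 in FZ, and the ATPases Psmc5 and Psmc3 of the regulatory particle were at −2.47 and −1.91 in PZ against 0.00 and 0.35 in FZ. Of 29 measured subunits, 10 were at least 1 higher in FZ and 0 in PZ, with a median of 0.84. Other subunits lay near 0 or toward PZ, since Psma3 differed by −0.34, Psmd11 by −0.32 and Psma6 by −0.04. PZ was the lowest array for 16 and FZ the highest for 18.

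Energy metabolism showed the same direction. Of 44 subunits of oxidative phosphorylation, 16 were at least 1 higher in FZ and 0 in PZ, with a median of 0.84, and PZ was the lowest of the 5 arrays for 29. Over the whole array PZ lay at least 1 below all others in 548 probe sets, against 48 for FZ. The share of all genes with PZ lowest was not counted. Cox4i1, a subunit of cytochrome c oxidase, was at 0.03 in FZ and −2.42 in PZ, Ndufv2 of complex I at 0.15 and −1.72, and Uqcrfs1 of complex III at 0.00 and −1.78. The other isoform, Cox4i2, which is known from lung and low oxygen, had a different profile, at 2.05 in FZ, −0.98 in PZ, 0.00 in MZ, −1.33 in HZ and 1.59 in FCC. In glycolysis and the hypoxia response 9 of 26 genes were at least 1 higher in FZ and 0 in PZ, with a median of 0.60. Ldha, lactate dehydrogenase, was at 1.10 in FZ and −1.33 in PZ, Aldoa, aldolase, at 0.97 and −1.50, and Pfkl, phosphofructokinase, at 0.74 and −1.06. Egln3, an oxygen sensor induced by hypoxia, was at 2.11 and −0.49, and Car9, a carbonic anhydrase induced by hypoxia, at 1.71 and 0.04. FZ was above 0 in these 5 genes, and PZ was below 0 in all but Car9. Of 27 ribosomal proteins, 10 were at least 1 higher in FZ and 0 in PZ, with a median of 0.54, and PZ was lowest for 22. They included Rps15a (2.04) and Rps9 (1.50). Of 8 commonly used reference genes, 2 passed 1, Rplp0 (1.32) and Ywhaz (1.25), and all 8 lay above 0.

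Control probe sets differed between the arrays beside these results. The GAPDH controls were at 0.70 in FZ and −1.46 in PZ at the 3′ end of the transcript, a difference of 2.16, at 0.99 and −0.85 in the middle, and at 0.63 and −0.10 at the 5′ end, a difference of 0.73. The excess of the 5′ over the 3′ level was thus 1.36 in PZ and −0.07 in FZ, while the other arrays lay between −0.21 (FCC) and 0.27 (HZ). For beta-actin this excess was 0.14 in both FZ and PZ, −0.10 in MZ and −0.24 in HZ, but 1.24 in FCC. The beta-actin difference between FZ and PZ was 0.12 at the 3′ end, 0.85 in the middle and 0.12 at the 5′ end. The part of RNA quality or of amplification in the low values of PZ was not tested. Fewer cells of a type and less RNA per cell cannot be told apart in these pooled samples.

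Probe sets of the same gene often disagreed in this group. The genes low in PZ that have further probe sets number 32, with 48 other probe sets, and of these 4 were at least 1 higher in FZ, 30 were within 0.5 of 0 and 3 were at least 1 higher in PZ, with a median of 0.04. Aplp2, a relative of the amyloid precursor, differed by 2.99 by 1 probe set and between −1.02 and 0.02 by the other 4. Kif13a, a kinesin, differed by 2.64, 0.27 and −0.01, and Men1, menin, by 2.62 and −0.07. In the genes that stood apart above in FZ the other 8 probe sets of 6 genes had a median of 0.41, with 2 at least 1 higher in FZ and 5 within 0.5 of 0. Claudin Cldn11 was at 2.77 and 0.00. For genes higher in PZ, 3 of the 7 other probe sets of 5 genes were at least 1 higher in PZ and 3 were within 0.5. When each gene took the mean of its probe sets, 82 of the 123 genes higher in FZ were still past 2 and 109 past 1, and of the 25 higher in PZ 21 were past 2 and all 25 past 1. Only 44 of the 123 and 5 of the 25 have other probe sets. The rest have a single probe set and could not change, so these counts say little about agreement.

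**Figure D4:**
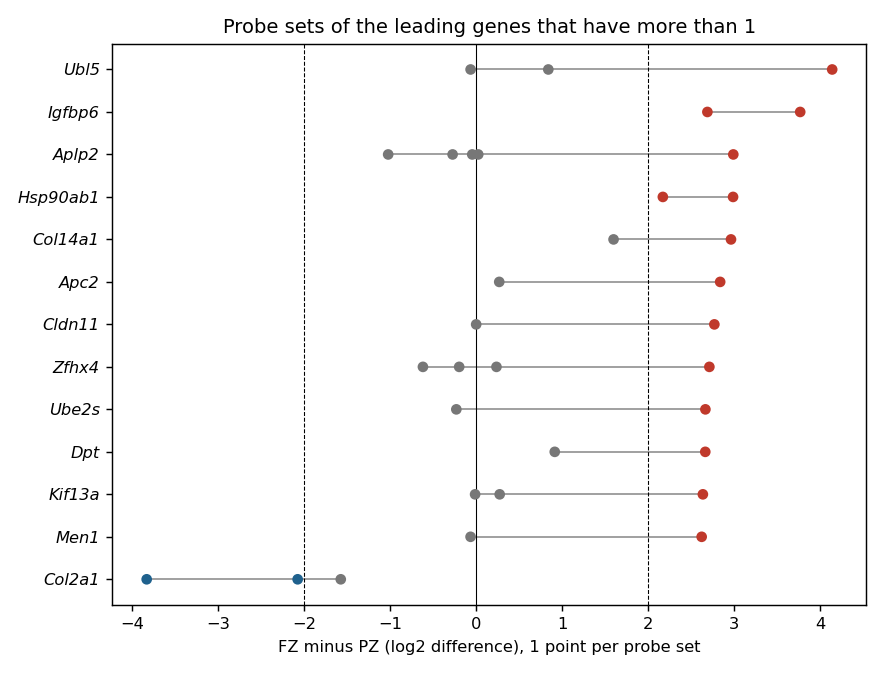
Difference FZ minus PZ (log2) of every probe set of the leading genes that have more than 1, with 1 point per probe set, red at 2 or more, blue at −2 or less and grey between, and a line joining the probe sets of a gene. Igfbp6 and Hsp90ab1 have all probe sets past 2, Col2a1 has all 3 below −1.5, and Ubl5, Aplp2, Kif13a and Men1 rest on 1 probe set.

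Among markers of other cell types, those of neutrophils and of leukocytes in general were the lists with the largest medians toward FZ. Of 16 genes of all leukocytes, 5 were at least 1 higher in FZ and 0 in PZ, with a median difference of 0.58, and the median level of the list was 0.00 in FZ and −0.77 in PZ, against 0.71 in MZ and 1.18 in HZ. Fcer1g, an Fc receptor chain of myeloid cells, was at 0.00 in FZ and −2.09 in PZ. Of 6 neutrophil genes 3 were at least 1 higher in FZ and 0 in PZ, with a median difference of 0.98 and with Lcn2 at −0.29 in FZ and −2.22 in PZ, and the median level was −0.51 in FZ and −1.76 in PZ, against 0.97 in MZ and 0.88 in HZ, so that both superficial layers were below the deep ones. Among 14 erythroid genes 2 passed 1, Alas2 (−0.97 in FZ and −2.52 in PZ) and Car2 (1.03), with a median of −0.07. Of 16 macrophage genes 1 passed 1, Csf1r at 1.02. Of 14 lymphocyte, 14 platelet, 13 smooth muscle and 11 nerve genes none passed 1, and 1 of 16 endothelial genes did. A count of 1 of 16 is near the 6.1% of all named genes at least 1 higher in FZ. Among 14 skeletal muscle genes Myh2, a myosin of fast fibres, was at 2.70 in FZ, 0.00 in PZ, 0.69 in MZ, −0.10 in HZ and −1.06 in FCC, and Myl1 (1.63) and Tnnc2 (1.38) were also higher in FZ, while the median was 0.02. These 3 are named because they passed 1. The other 11 lay within 1 of 0, the lowest at −0.42, and 8 of the 14 were above 0. Myom2, a muscle gene outside the list, differed by −1.47, toward PZ. In the bone lists Spp1, osteopontin, was at 0.00 in FZ and −2.17 in PZ and Mepe, an osteocyte protein, at 0.00 and −1.53, while Bglap, osteocalcin, differed by 0.54, Ibsp, bone sialoprotein, by −0.02 and Acp5, the acid phosphatase of osteoclasts, by 1.02. The part of cells of these types in the results was not tested.

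Of 13 craniofacial patterning factors none passed 1, with Dlx1 the highest at 0.97. Of 20 immediate early genes Fosb alone passed 1. Among 21 matrix proteases and their inhibitors 3 were at least 1 higher in FZ, Mmp11 (1.26), Mmp12 (1.21) and Adamts12 (1.06). Over all named genes the share was 6.1%. In the chaperone and endoplasmic reticulum list 4 of 24 were at least 1 higher in FZ and 0 in PZ, including Hsp90ab1 (2.58) and the stress factor Atf4 (1.77). Over all 44 lists, more members were at least 1 higher in FZ than in PZ in 30 and the reverse held in 7, which is to be read against the 867 genes at least 1 higher in FZ and the 159 higher in PZ over the whole array.

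Several genes outside these groups were also among the leading differences in FZ. Qpct, which forms pyroglutamate at the ends of peptides, was at 2.22 in FZ and no more than 0.00 elsewhere. Fxyd6, a regulator of the sodium pump, was at 2.53 in FZ and 0.45 in PZ, and Ntrk2, a neurotrophin receptor, at 2.82 and 0.66 by 1 of 5 probe sets, whose mean difference was 0.78. Apc2, a relative of the colon tumour suppressor, differed by 2.84 and 0.27 by its 2 probe sets. The transcription factor Zfhx4 differed by 2.71 by 1 of 4 probe sets and by −0.62 to 0.24 by the others.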

How the data were processed

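RNA of laser-captured zones of rat condylar cartilage was hybridized to Affymetrix rat genome arrays, 1 per group in 5 groups. The values that the authors deposited are log2 values. Per the methods they were normalized by RMA in GeneSpring, and the submitters' processing notes also name MAS5. In the files the median of every probe set over the 5 arrays is 0, so neither an expression level nor a signal over background can be recovered, and no filter on dim probe sets was possible. The sources used here name no genome build.

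FZ minus PZ was computed for 31042 probe sets, leaving out 57 controls, in Python 3.11.15 (pandas 2.3.3, numpy 2.4.6). Of these, 20826 had 1 gene symbol in the platform annotation, 436 had several and 9780 were not listed there. Symbols were updated through RefSeq GRCr8, used for names and promoters only. In the 44 lists a gene takes the mean of its probe sets, and members at least 1 apart were counted. Genes named were drawn from the 20 with the largest difference each way and from list members past 1 or defining their list. Others came from genes named for these zones in the paper and the 10 furthest beyond all other arrays in FZ or in PZ each way. Genes with all of several probe sets past 2 were also taken. Not every gene that meets these rules is named. The lists and rules were chosen with earlier results of these data known. With 1 array per group no test was run, and the number of arrays limits the precision. The computation was tested on simulated data. Alternatives changed the size threshold, the scaling, the probe sets per gene and the probe sets left out.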

Additional observations from a re-analysis of the deposited data

How the results depend on the processing

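No paired analysis was possible because each zone has 1 array, and for the same reason no array could be left out. The 146 probe sets higher in FZ became 1652, 626 and 7 at thresholds of 1, 1.4 and 3, and the 43 higher in PZ became 595, 164 and 13. After a shift by the hybridization controls the counts were 598 and 18, and 237 were higher in FZ after a shift by the Cre controls. With 1 value per gene they were 82 and 21. The counts of layers standing apart were recomputed under both shifts, which were chosen for them, and for the counts at sizes of 3 and 4, after seeing the data. FZ stood apart above in 93 (hybridization) and 38 (Cre) in place of 21. With the hybridization controls PZ stood apart below in 321 in place of 94, FZ below in 11 in place of 19 and PZ above in 1 in place of 8. Other probe sets of the same genes at least 1 higher in FZ numbered 60 and 15 in place of 8. Lists with more members higher in PZ numbered 2 and 4 in place of 7. The hybridization shift moved all 44 list medians and changed the sign of 8, those of the hedgehog, Notch, erythroid, adipocyte, immediate early, platelet, nerve and chondrocyte transcription factor lists, and the Cre shift changed the sign of 7 of these. None of the 60 leading genes changed sign under any scaling, which was fixed in advance. They were chosen for large differences, the smallest being −1.47 (Myom2). The hybridization controls, which gave the largest shift, differed by only −0.59. Averaging a gene's probe sets moved 21 of the 60. The cause of these changes was not tested, beyond the shift itself and the fewer probe sets counted.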
